A study of Mus musculus with 386 samples.

Results

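The transcripts described here encode the TATA-binding protein (Tbp), its relatives Tbpl1 and Tbpl2, and the TFIID subunits Taf1, Taf4b, Taf5, Taf7 and Taf7l. These 8 genes were chosen by name, as general or germline forms of the same complex, and all 8 were found among the 54658 gene rows of the deposited count table. They were followed in mouse female germ cells of 3 stages, embryonic day 17.5 (E17.5) and postnatal days 2.5 (P2.5) and 6.5 (P6.5). Ovaries were dissociated with enzymes, germ cells were picked by hand and each was sequenced with Smart-seq2, which copies and amplifies polyadenylated RNA from a single cell. No treatment, genotype or strain is named in the labels for any stage, and no animal or litter, so each stage was handled as 1 sample of many cells. The series is titled as a study of oocyte fate in primordial follicles. The comparison made here asks how the general and germline forms stood at each stage, and no replicate check or test of a difference was possible.

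TFIID is the complex that recognises core promoters and starts assembly of the RNA polymerase II machinery. In most cells it consists of TBP, which bends DNA at the TATA box, and a set of TBP-associated factors (TAFs). Germ cells also express paralogues of these parts. TBPL2 (also called TBP2 or TRF3) is known to replace TBP in growing mouse oocytes, where it works with TFIIA. TAF4B and TAF7L are known for roles in germ cell development of the ovary and the testis, and TBPL1 (TRF2 or TLF) is best known from spermatids.

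There were 386 libraries, 22 of E17.5 and 47 of P6.5 among them, with P2.5 making up the remainder. At P2.5, 24 pairs of libraries were near-identical (median chi-square per gene up to 1.029), and merging each pair gave 362 cells in all. The closest pairs left apart were P2.5_272 with P2.5_283 (2.315), E17.5_4 with E17.5_7 (2.787) and P2.5_60 with P2.5_152 (3.015). Whether any of these came from the same cell was not tested. Gene counts per cell had medians of 6.39e+06, 6.18e+06 and 8.60e+06 at the 3 stages, and the lowest was 4.36e+05. Germ cell markers (Ddx4, Dazl, Dppa3, Mael, Sycp3) were detected in all cells, and their summed level was 2525 CPM (counts scaled to an equal total) at E17.5, 3910 CPM at P2.5 and 5103 CPM at P6.5. In 5 E17.5 libraries (numbers 8, 10, 15, 16 and 18) they stayed under 1000 CPM, at 212.3 to 992 CPM, and 35.1% of all E17.5 counts came from them. Erythroid genes (5 genes, Hba-a1 among them) were seen in all 22 E17.5 libraries, at 214.3 to 5863 CPM, and in 22 P2.5 cells. Their stage sums were 1593, 38.7 and 1.94 CPM, no E17.5 library was without them, and their part in the results was not tested. Markers of granulosa, stromal, endothelial, surface epithelial, immune or mast cells were seen in 34 cells. At least 10 of these were E17.5 libraries, since mast cell genes were seen in 10 of the 22, at up to 9.74e+04 CPM. They were seen in 0 cells of P2.5 and of P6.5. Values without the 34 cells therefore rest on a smaller set of E17.5 libraries. Granulosa genes summed to 213.1, 13.6 and 5.29 CPM, and the E17.5 sum carried 7293 CPM of 3 mast cell genes against 0.0228 CPM at P2.5 and 0.00489 CPM at P6.5. Calls were therefore repeated without the 5 libraries and without the 34 cells, and neither subset removes the erythroid signal. Between E17.5 and P2.5, 36 genes among the 8, the pathway lists and 2 reference lists given below differed at least 2-fold. Of all 17421 genes measured, 22.6% were at least 2-fold higher and 32.4% lower. Of the 36, 35 kept that call without the 5 libraries and 33 without the 34 cells. The 36 include 7 oocyte growth and 7 meiotic prophase genes of the reference lists, all of which kept the call in both. The 4 of the 8 genes that were called kept it in both. Taf13 fell short of 2-fold in both (log2 0.87 and 0.91), and without the 34 cells so did Gtf2h1 (-0.74) and Polr2c (0.66).

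Promoter windows from RefSeq (GRCm38.p6, 250 bases before to 50 after the start) are described for 6 of the 8 genes. Those of Taf4b and Taf7 are not reported here. The 200 bases before the start are shown for 3 genes whose transcripts behaved differently across the stages. Tbpl2 was near 0 at E17.5 and high after birth (chr2:24096596-24096795, minus strand), Tbp was within 2-fold at every stage (chr17:15499688-15499887, plus strand), and Taf7l was highest at E17.5 (chrX:134476491-134476690, minus strand). Each runs 5′ to 3′ and ends at the base before the start, and capitals mark every CANNTG, the E-box pattern read by basic helix-loop-helix factors.
Tbpl2: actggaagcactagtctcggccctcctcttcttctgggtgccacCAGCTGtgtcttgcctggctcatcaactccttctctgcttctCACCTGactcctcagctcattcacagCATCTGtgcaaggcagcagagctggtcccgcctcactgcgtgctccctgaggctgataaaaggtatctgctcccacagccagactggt
Tbp: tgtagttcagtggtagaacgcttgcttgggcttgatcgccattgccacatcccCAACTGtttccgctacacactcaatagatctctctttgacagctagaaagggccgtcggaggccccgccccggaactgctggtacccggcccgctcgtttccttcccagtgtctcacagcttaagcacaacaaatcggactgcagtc
Taf7l: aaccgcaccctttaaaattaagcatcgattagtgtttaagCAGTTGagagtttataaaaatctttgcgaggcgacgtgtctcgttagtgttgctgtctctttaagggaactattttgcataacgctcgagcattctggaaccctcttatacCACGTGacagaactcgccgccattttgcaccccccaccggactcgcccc

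In the full 300-base windows CANNTG occurred 5 times for Tbpl2, 3 times for Tbp, 2 times each for Taf7l and Taf5 and once each for Tbpl1 and Taf1. CANNTG has the same pattern on both strands, so each match was counted once, and overlapping matches were counted. At least 1 CANNTG was in 72.3% of the 32851 windows of the table and 5 or more were in 2.10%. The Tbpl2 window held 4 CG dinucleotides, against 17 each for Tbp and Taf7l, 18 for Taf1 and 24 each for Tbpl1 and Taf5, where the median window held 7 and 38.04% of windows held fewer than 5. TATAAA, searched on both strands, had 2 matches in the Taf7l window, 1 on each strand, which overlap at the same place in the stretch shown. It had 1 match in the window of Taf5 and was found in 13.6% of all windows. TAATTG, searched on both strands as well, was in none of the 6 windows and in 2628 of all. These matches describe letters and say nothing of binding.

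Of the 8 genes, 2 were higher at P2.5 than at E17.5 by 2-fold or more (Tbpl2 and Taf7), 2 were lower by 2-fold or more (Taf7l, and Taf4b, which turned on the spike-in scale) and 4 lay within 2-fold. Over all 17421 genes measured in that comparison, 22.6% were at least 2-fold higher and 32.4% at least 2-fold lower. These counts use the summed counts of a stage scaled to CPM, with 0.5 CPM added to both stages, for genes with at least 1 CPM in either stage and a count in at least 3 cells. From P2.5 to P6.5, 0 of the 8 were at least 2-fold higher (background 6.9%) and 1 was at least 2-fold lower, Taf7l, which turned on the spike-in scale (background 9.3%). Between E17.5 and P6.5, 1 was higher, Tbpl2 (background 22.7%), and 2 were lower, Taf7l and, with a turn to 3.19 on the spike-in scale, Taf4b (background 39.5%). The median log2 ratio of the 8 was -0.01, -0.37 and -0.30 in the 3 comparisons, and that of all measured genes was -0.26, -0.18 and -0.48. The shares of members called were near the background and say nothing particular of the 8 as a set.

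All of these ratios are relative to the total RNA sequenced. RNA per cell was not constant: cells had a median of 81.3 gene counts for each spike-in count at E17.5, 465 at P2.5 and 3203 at P6.5. Scaled to the spike-in RNA, 7 of the 8 genes were at least 2-fold higher and 1, Taf7l, at least 2-fold lower at P2.5 relative to E17.5. On the same scale 7 were higher and 0 lower at P6.5 than at P2.5. The spike-in scale assumes an equal amount added to each cell, an amount the sources used here do not give. Other scalings that put the median gene nearer to 0 (TMM and median-of-ratios) moved the median log2 ratio between P2.5 and E17.5 up by 0.41 and 0.25. The spike-in scale moved each log2 ratio up by 2.51 at the first step and 2.78 at the second, so every smaller decline in CPM below turns to an increase on it.

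**Figure D1:**
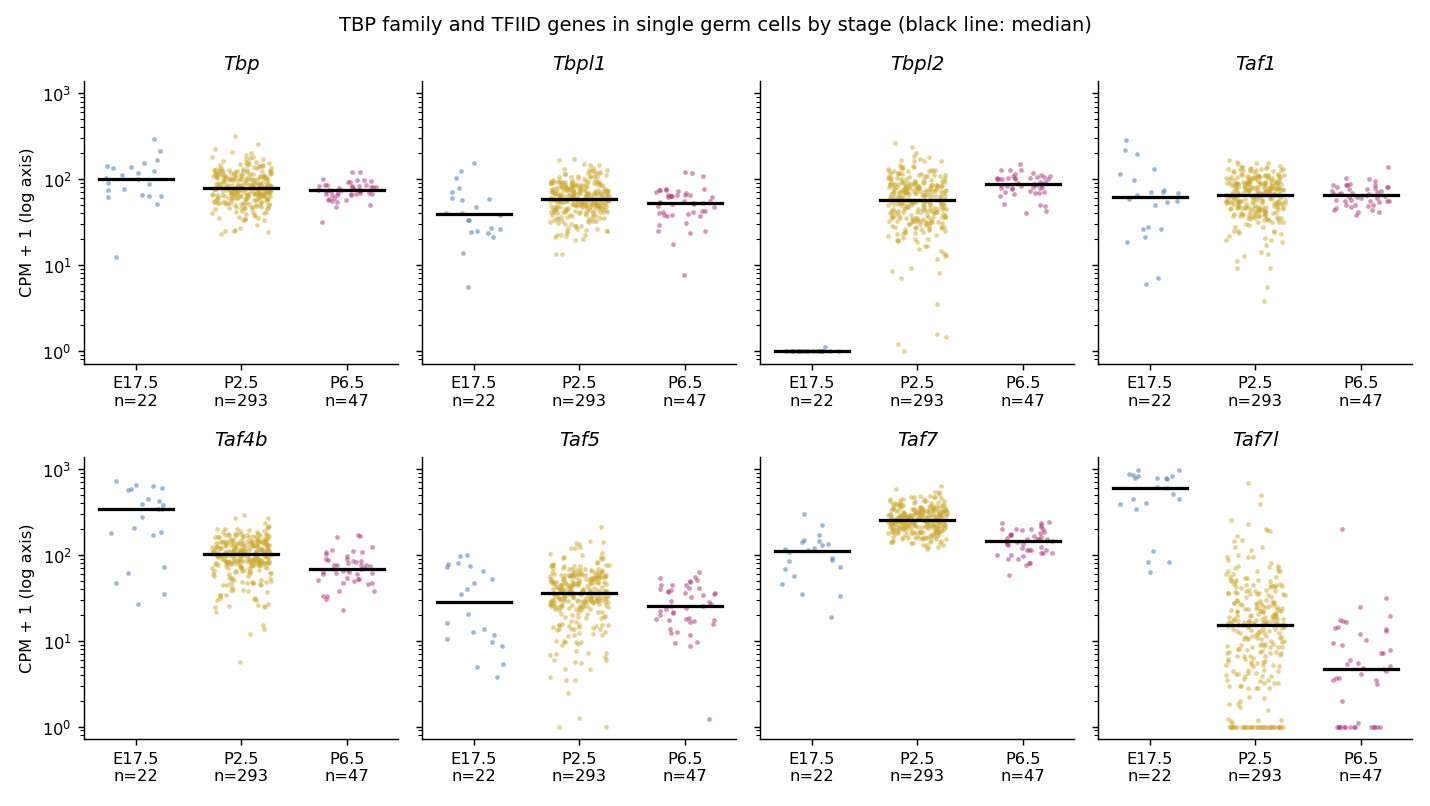
CPM + 1 on a log axis for each of the 8 genes, with 1 point per cell (22 at E17.5 and 47 at P6.5) and a black line at the median of a stage. Tbpl2 lies at or near 0 in all 22 E17.5 libraries and at a median of 56.4 CPM at P2.5, while Taf7l drops from a median of 607 CPM to 14.2 and 3.67 CPM, the second step being one that turns on the spike-in scale.

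Tbpl2, the oocyte paralogue of TBP (chr2:24071721-24096595, minus strand), was the member with the largest difference. Among the 22 E17.5 libraries 21 had 0 counts and library 6 had 1 count, 0.102 CPM. The P2.5 cells ranged from 0 to 265.09 CPM with a median of 56.4 CPM. The P6.5 cells ranged from 39.02 to 148.4 CPM with a median of 86.3 CPM. At P2.5, 99.7% of cells lay above every E17.5 library, and 42 of 47 P6.5 cells lay above the P2.5 median. The stage sums were 0.00708, 65.9 and 88.02 CPM. From the single E17.5 count the ratio of P2.5 to E17.5 was 9310 (exact Poisson 95% interval 1671 to 3.68e+05). That interval, like all intervals of ratios here, covers the counting of reads only. The P6.5 sum was 1.34-fold the P2.5 sum (log2 ratio 0.42, 0.40 to 0.43).

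Thinned to 400000 counts per cell, 0 of 22 E17.5 libraries had a Tbpl2 count, which allows a share of up to 15.4% (exact binomial 95% bound). At P2.5 the thinned share was 98.6% (96.5 to 99.6%) and at P6.5 it was 100% (92.5 to 100%), against unthinned shares of 4.55%, 99.7% and 100%. The few P2.5 cells at the low end of Tbpl2 were libraries P2.5_175 at 0 CPM, P2.5_293 at 0.206 CPM, P2.5_97 at 0.454 CPM, P2.5_32 at 0.554 CPM and P2.5_105 at 2.52 CPM. All 5 had between 2813 and 3247 CPM of germ cell markers. Their sums over 7 oocyte growth genes (Gdf9, Bmp15, Zp1, Zp2, Zp3, Ooep, Zar1) were 614 to 1376 CPM, where the P2.5 median was 2689 CPM and the lower quartile 1783 CPM.

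Tbp itself (chr17:15499888-15528379, plus strand) was present in every cell of every stage. Its E17.5 libraries ranged from 11.4 to 291.01 CPM with a median of 100.3 CPM. The P2.5 cells ranged from 22.1 to 319 CPM with a median of 77.2 CPM, and the P6.5 cells from 30.9 to 118.6 CPM with a median of 73.4 CPM. The 3 ranges overlapped almost entirely, but 73.04% of P2.5 cells and 45 of 47 P6.5 cells lay below the E17.5 median. The log2 ratio of the sums was -0.34 (-0.36 to -0.32) from E17.5 to P2.5 and -0.08 (-0.10 to -0.06) from P2.5 to P6.5, and the sign of both turned with TMM scaling (0.02 and 0.16). Exons of Tbp overlap those of Pdcd2 on the other strand over 2582 bases, and without a stated strand setting the reads there cannot be told apart. The same holds for 407 bases that Tbpl1 exons share with Slc2a12.

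Tbpl1 (chr10:22703879-22731938, minus strand), whose product does not bind the TATA box, was also found in every cell. Its E17.5 libraries ranged from 4.57 to 152.6 CPM with a median of 38.2 CPM. The P2.5 cells had a median of 57.6 CPM (12.4 to 171.4) and the P6.5 cells a median of 52.2 CPM (6.70 to 118.8). The ranges overlapped, and 84.98% of P2.5 cells lay above the E17.5 median. The log2 ratio was 0.38 (0.34 to 0.41) from E17.5 to P2.5, 0.11 without the 5 E17.5 libraries low in germ cell markers and 0.07 without the 34 cells. From P2.5 to P6.5 it was -0.21, turning to 0.03 with TMM scaling.

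Levels of different genes were compared per length, with the deposited FPKM. Tbp was the highest of the TBP family in 20 of 22 E17.5 libraries and Tbpl1 in the other 2. At P2.5 Tbp was highest in 47.4% of cells, Tbpl2 in 37.9% and Tbpl1 in 14.7%. At P6.5 Tbpl2 was highest in 37 of 47 cells, Tbp in 8 and Tbpl1 in 2. The median share of Tbpl2 in the family's summed FPKM was 0% at E17.5, 32.9% at P2.5 (quartiles 23.2 to 41.7%) and 43.2% at P6.5 (37.3 to 47.96%). Tbpl2 FPKM exceeded Tbp FPKM in 0 of 22 E17.5 libraries, 43.3% (37.6 to 49.2%) of cells at P2.5 and 38 of 47 at P6.5 (80.9%, 66.7 to 90.9%). The intervals of such shares take each cell as an independent draw, and any difference between animals is outside them.

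The order within the TBP family rests on the length used. The ratio of CPM to FPKM corresponded to a length of 1.70 kb for Tbp, 1.45 kb for Tbpl2 and 1.94 kb for Tbpl1, whereas all annotated Tbp exons together span 13.6 kb. With counts per kilobase of all annotated exons, Tbpl1 would stand above Tbp at E17.5 (log2 0.98 in place of -1.86). By the same measure Tbpl2 would stand above Tbp at P2.5 (log2 3.03 in place of -0.22) as well as at P6.5 (3.53 in place of 0.40).

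Taf7l (chrX:134460118-134476490, minus strand), a paralogue of Taf7 known from male and female germ cells, was the member with the largest decline. The 22 E17.5 libraries ranged from 61.8 to 982 CPM with a median of 607 CPM. The P2.5 cells ranged from 0 to 692 CPM with a median of 14.2 CPM. The P6.5 cells ranged from 0 to 197.45 CPM with a median of 3.67 CPM. Of the P2.5 cells 90.1% lay below the lowest E17.5 library, and 40 of 47 P6.5 cells lay below the P2.5 median. The log2 ratio of the sums was -4.01 (-4.02 to -3.99) from E17.5 to P2.5, a 16.1-fold decline. It was -1.83 (-1.87 to -1.78) from P2.5 to P6.5, or 0.95 in the opposite direction on the spike-in scale. In P6.5 library 44 alone lay 38.8% of the Taf7l counts of that stage, and without it the P6.5 sum was 5.76 CPM in place of 9.24 CPM.

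The 5 E17.5 libraries low in germ cell markers held less Taf7l than the rest, with a median of 82.4 CPM (61.8 to 593) against 774 CPM (339 to 982) in the other 17. Without them the log2 ratio between P2.5 and E17.5 was -4.45. Without the 34 cells that held markers of cell types other than erythroid it was -4.13.

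At P2.5 Taf7l was uneven between cells. Of the cells 11.6% had 0 counts (8.17 to 15.8%), 41.98% were under 10 CPM, 12.3% were at 50 CPM or more and 4.78% at 100 CPM or more. At P6.5, 14 of 47 cells had 0 counts (29.8%, 17.3 to 44.9%) and only library 44 reached 50 CPM. After thinning to 400000 counts the share of cells with a count was 100%, 81.9% and 59.6% at the 3 stages. The highest P2.5 cells were libraries P2.5_15 at 692 CPM, P2.5_85 at 494 CPM and P2.5_110 at 391.5 CPM. These 3 also had meiotic prophase sums (Sycp1, Sycp2, Sycp3, Stra8, Meioc, Spo11, Dmc1, Smc1b, Rec8) of 1705 to 2148 CPM, above the P2.5 upper quartile of 1401 CPM, but the next cell, P2.5_46 at 253.6 CPM of Taf7l, had 1352 CPM, below it. Nxf2, an mRNA export factor gene active in germ cells, was at 396 and 404 CPM in P2.5_85 and P2.5_110 but at 6.44 CPM in P2.5_15. Tex19.2 was at 31.7, 24.9 and 0.678 CPM in the same order.

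Taf7, the general form, moved the other way after E17.5. Its product holds back TAF1 activity within TFIID. The E17.5 libraries ranged from 17.98 to 293.86 CPM with a median of 108.8 CPM. The P2.5 cells ranged from 115.04 to 635 CPM with a median of 254.85 CPM. The P6.5 cells ranged from 57.3 to 240 CPM with a median of 144.65 CPM. Thus every P2.5 cell lay above the E17.5 median and 31.4% above the highest E17.5 library, and all 47 P6.5 cells lay below the P2.5 median. The log2 ratio was 1.33 (1.302 to 1.349) from E17.5 to P2.5, and 1.04 without the 5 E17.5 libraries. From P2.5 to P6.5 it was -0.84 (-0.86 to -0.83), or 1.796-fold lower and short of 2-fold, and on the spike-in scale it turned to 1.94.

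The order of Taf7l and Taf7 was thus opposite at E17.5 and at P2.5. By FPKM, Taf7l stood above Taf7 in 22 of 22 E17.5 libraries, 3.75% (1.89 to 6.62%) of cells at P2.5 and 1 of 47 at P6.5. The median FPKM of Taf7l was 319 at E17.5, the highest of 20 TFIID genes compared there, and 7.04 and 1.75 later, rank 18 at both stages. Taf7 had 25.9, 70.2 and 39.2 FPKM. From summed counts the Taf7l to Taf7 ratio was 40.2-fold lower at P2.5 compared with E17.5 and a further 1.97-fold lower at P6.5. A ratio of counts within a stage needs no library scaling, and nothing was added to these counts.

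Taf4b, the germline form of TAF4 and needed for a normal oocyte reserve, was lower after birth relative to total RNA but was present in every cell of every stage. The E17.5 libraries ranged from 25.9 to 717 CPM with a median of 341 CPM. The P2.5 cells ranged from 4.59 to 292.94 CPM with a median of 100.1 CPM. The P6.5 cells ranged from 22.1 to 171.1 CPM with a median of 67.4 CPM. Every P2.5 cell lay below the E17.5 median but only 3.75% below the lowest E17.5 library, and 39 of 47 P6.5 cells lay below the P2.5 median. The log2 ratio was -1.50 (-1.51 to -1.48) from E17.5 to P2.5, and on the spike-in scale it turned to 1.01. From P2.5 to P6.5 it was -0.61 (-0.62 to -0.59), and 2.17 on the spike-in scale.

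As with Taf7l, the 5 E17.5 libraries low in germ cell markers had less Taf4b, a median of 45.8 CPM (25.9 to 183.04) against 392 CPM (71.98 to 717) in the other 17. Without them the log2 ratio between P2.5 and E17.5 was -2.01, and without the 34 cells it was -1.81.

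Its general partner Taf4 was low throughout, with stage sums of 13.9, 10.4 and 3.80 CPM. In E17.5 library 20 lay 44.7% of the E17.5 counts of Taf4, and without that library the E17.5 sum was 8.29 CPM, below the P2.5 sum. Taf4b exceeded Taf4 by FPKM in 22 of 22 E17.5 libraries, 95.6% of P2.5 cells and 47 of 47 P6.5 cells, with median FPKM of 60.6 against 0.74, 17.9 against 1.56 and 12.6 against 0.90. The summed-count ratio of Taf4b to Taf4 was 2.11-fold lower at P2.5 compared with E17.5. It was 3.45-fold lower without library 20, 1.97-fold lower without library 2 and 1.68-fold lower without the 34 cells. Taf4 itself was 2.73-fold lower at P6.5 than at P2.5 (log2 -1.45, turning to 1.33 on the spike-in scale), and the germline form stayed the higher of the pair at all 3 stages.

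**Figure D2:**
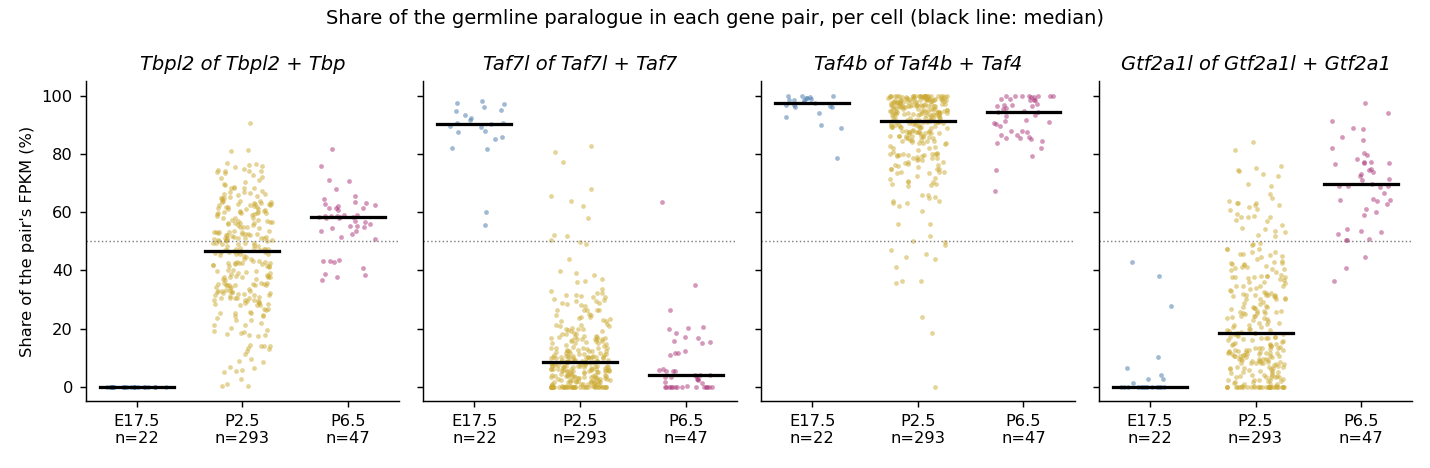
Share of the germline form in the summed FPKM of a gene pair, in percent, with 1 point per cell, a black line at the stage median and a dotted line at equal levels. The median share of Taf7l passes from 90.3% to 8.44% and 4.001%, that of Tbpl2 from 0% to 46.7% and 58.2%, that of Taf4b stays above 91%, and that of Gtf2a1l ends at 69.7%.

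Taf1 and Taf5 are general subunits with no germline paralogue in these lists. TAF1 is the largest subunit and the scaffold of the lobe that binds downstream promoter DNA. Taf1 (chrX:101532734-101601789, plus strand) had medians of 61.1 CPM at E17.5 (5.01 to 285.8), 65.2 CPM at P2.5 (2.84 to 164.2) and 65.1 CPM at P6.5 (37.6 to 138.83). The log2 ratios of the sums were -0.13 and -0.04 at the 2 steps, and both turned positive with TMM scaling (0.23 and 0.19). The upper quartile of Taf1 was 3.50-fold the lower quartile at E17.5, 1.98-fold at P2.5 and 1.47-fold at P6.5. For Tbp the same ratio was 2.05, 1.71 and 1.28. The log2 ratio between P2.5 and E17.5 was -0.42 without the 5 libraries.

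TAF5 is a core subunit present in both lobes of TFIID. Taf5 (chr19:47067746-47083479, plus strand) had medians of 27.045 CPM at E17.5 (2.81 to 99.6), 34.8 CPM at P2.5 (0 to 211.1) and 24.4 CPM at P6.5 (0.216 to 61.4). The log2 ratio was 0.11 from E17.5 to P2.5, turning to -0.37 once the 5 libraries low in germ cell markers were left out. It was -0.54 (-0.57 to -0.52) from P2.5 to P6.5. By FPKM, Taf1 and Taf5 were among the low TFIID genes, at ranks 15 to 18 of 20 at every stage.

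TFIIA is the factor that stabilises TBP or TBPL2 on DNA, and its large subunit also has a germline form. Gtf2a1l (chr17:88668660-88715152, plus strand), also called ALF, had counts in 10 of 22 E17.5 libraries, and 72.3% of them were in library 2. The E17.5 sum was 1.18 CPM, and 0.337 CPM without that library. The counts lay almost entirely in E17.5 libraries 1 to 10, with a median of 0.835 CPM (0 to 24.8). In libraries 11 to 22 the median was 0 CPM (0 to 0.277). The oocyte growth sum also tended to be higher in libraries 1 to 10 (14.95 to 122.7 CPM) than in 11 to 22 (0.0972 to 32.2 CPM), with overlap. The split is thus not particular to Gtf2a1l, and its cause was not tested. The P2.5 cells ranged from 0 to 84.05 CPM with a median of 7.38 CPM. The P6.5 cells ranged from 14.8 to 150.94 CPM with a median of 52.8 CPM, and all 47 lay above the P2.5 median. The log2 ratio was 3.65 (3.43 to 3.88) from E17.5 to P2.5 and 2.00 (1.98 to 2.02) from P2.5 to P6.5. With 0.5 CPM added the first was 3.19, and it was 2.88 without the 5 E17.5 libraries low in germ cell markers and 4.96 without the 34 cells. The thinned share of cells with a count was 13.6%, 75.1% and 100% at the 3 stages.

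The general form Gtf2a1 had stage sums of 76.97, 88.6 and 41.3 CPM. It was 2.14-fold lower at P6.5 than at P2.5 (log2 -1.10, -1.12 to -1.08), and 46 of 47 P6.5 cells lay below the P2.5 median. That direction turned on the spike-in scale (1.68). Gtf2a1l FPKM exceeded Gtf2a1 FPKM in 0 of 22 E17.5 libraries, 11.9% (8.46 to 16.2%) of cells at P2.5 and 44 of 47 at P6.5 (93.6%, 82.5 to 98.7%). The Gtf2a1l to Gtf2a1 ratio of summed counts was 10.9-fold higher at P2.5 than at E17.5 and 8.58-fold higher at P6.5 than at P2.5. The first value was 38.8-fold without E17.5 library 2. The small subunit Gtf2a2 stayed within 2-fold, with sums of 117.2, 103.03 and 82.3 CPM.

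Of the 6 germline to general pairs, 5 could be measured by counts. For Tbpl1 and Taf9b the name germline form marks only the place in the pair, and no restriction to germ cells is meant. Between E17.5 and P2.5, 2 shifted at least 2-fold to the germline form with 0.5 CPM added (Tbpl2 to Tbp, Gtf2a1l to Gtf2a1) and 2 to the general form (Taf7l to Taf7, Taf4b to Taf4). Tbpl1 to Tbp shifted 1.64-fold (log2 0.71), and with mean FPKM it passed 2-fold (log2 1.27), while without the 34 cells it was 0.32. Between P2.5 and P6.5 only Gtf2a1l to Gtf2a1 shifted at least 2-fold. The pair Taf9b to Taf9 could not be measured, because Taf9 had 0, 0.0596 and 0.0269 CPM at the 3 stages while its median FPKM was 49.4, 30.6 and 25.6. Exons of Taf9 share 1564 of 2120 bases with Ak6 on the same strand. Taf9b, the paralogue on the X chromosome, had sums of 100.3, 30.8 and 17.4 CPM and a log2 ratio of -1.70 between P2.5 and E17.5, which turned to 0.80 on the spike-in scale. Taf9b was also uneven at E17.5, with a median of 12.4 CPM in the 5 libraries low in germ cell markers and 113.89 CPM in the other 17. With 0.5 CPM added its log2 ratio was -1.68, and -2.22 without the 5 libraries.

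**Figure D3:**
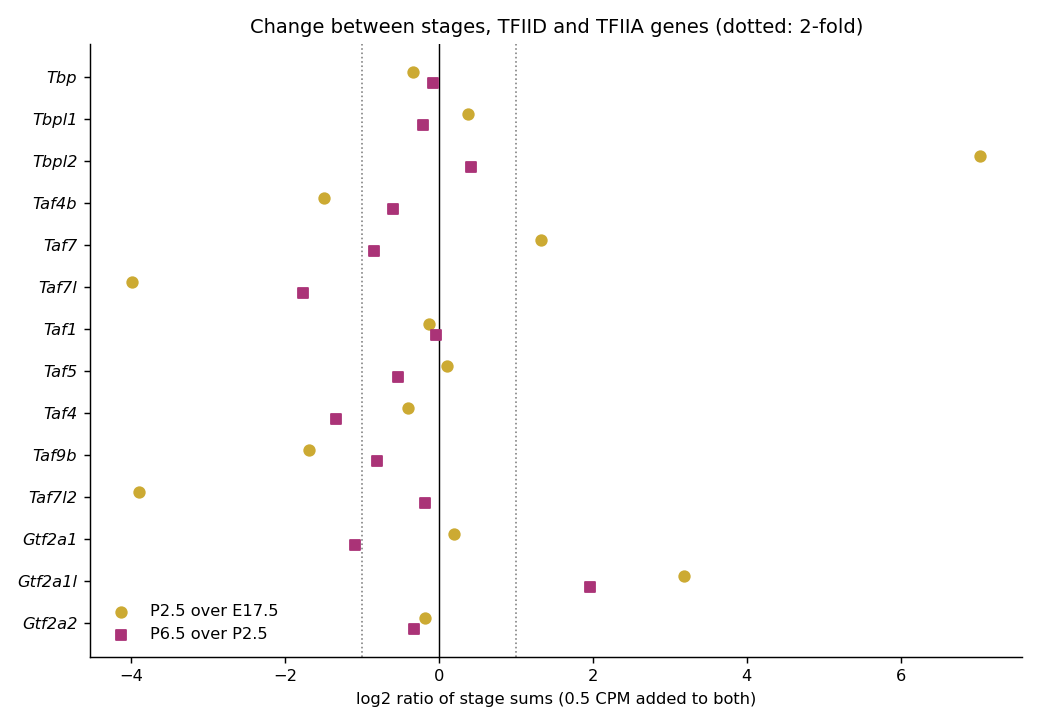
Log2 ratio of stage sums with 0.5 CPM added to both stages, for the 8 genes and 6 related TFIID and TFIIA genes, circles for P2.5 over E17.5 and squares for P6.5 over P2.5. Dotted lines mark 2-fold, and the first Tbpl2 value is set by the 0.5 CPM added. Tbpl2 and Gtf2a1l lie far to the right at the first step (7.03 and 3.19), Taf7l and Taf7l2 far to the left (-3.98 and -3.90), and only Gtf2a1l lies to the right of 2-fold at the second (1.96).

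Among the other TFIID subunits 11 of 12 were measured between P2.5 and E17.5, with 1 at least 2-fold higher (22.6% over all genes) and 2 at least 2-fold lower (32.4%). The higher one was Taf13, at 28.4 CPM and then 65.1 CPM. The lower ones were Taf9b and Taf7l2, a second Taf7-like gene that the table lists under its clone name. Taf7l2 had sums of 34.4, 1.85 and 1.58 CPM, and 83.6% of P2.5 cells lay below the lowest E17.5 library. Its log2 ratio of -4.22 (-4.28 to -4.16) was close to that of Taf7l, and its fall between E17.5 and P6.5 turned to a rise of 0.80 on the spike-in scale. Between P2.5 and P6.5, Taf4 was the only one of the 11 at least 2-fold lower (not so on the spike-in scale; 9.3% over all genes), and 0 were higher (6.9%).

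By FPKM several members changed place in the order of 20 TFIID genes. Taf7l went from rank 1 at E17.5 to rank 18 at P2.5, and Taf7 from rank 11 to rank 2 and then 9. Tbpl2 went from rank 20 to rank 8 and then 3, where its median of 59.9 FPKM lay beside that of Taf12 at 59.1 FPKM. Taf4b went from rank 4 to ranks 12 and 13. Taf6, a histone-fold subunit, was first or second at all 3 stages with 123.86, 108.27 and 92.7 FPKM. Exons of Taf6 share 1185 bases with Ap4m1 on the other strand. As within the TBP family, the order of the 20 rests on the lengths used for FPKM.

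The partners of TFIID were described in the same way, and over all genes 22.6% were at least 2-fold higher and 32.4% lower at the first step, and 6.9% and 9.3% at the second. Of 15 other general factors of RNA polymerase II, 1 was at least 2-fold higher at P2.5 than at E17.5 (Ercc3, a TFIIH helicase, 30.9 and 79.9 CPM) and 1 lower (Gtf2h1, a TFIIH subunit, 183.44 and 80.2 CPM, turning to a log2 ratio of 1.32 on the spike-in scale). Between P2.5 and P6.5, 2 of the 15 were at least 2-fold lower, Gtf2h3 and Ccnh, which also belong to TFIIH and turned to 1.45 and 1.68 on the spike-in scale. Of 3 regulators of TBP, Drap1 was higher after the first step (14.3 and 81.3 CPM) and Btaf1 lower (186.24 and 83.8 CPM, turning to a log2 ratio of 1.36 on the spike-in scale). DRAP1 is part of the NC2 repressor that binds TBP on DNA, and BTAF1 removes TBP from DNA. Both were within 2-fold between P2.5 and P6.5, and so was the third regulator, Dr1, at both steps.

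Against spike-in RNA, 7 of the 8 genes rose with the cell as a whole. The median number of Tbp counts per 1000 spike-in counts was 7.94 at E17.5, 37.3 at P2.5 and 258.2 at P6.5. For Tbpl2 it was 0, 26.6 and 310.9. For Taf4b it was 19.9, 45.1 and 237.4, so the lower share of Taf4b in total RNA went with more Taf4b per spike-in. Taf7l was the exception among the 8, with 43.9, 6.02 and 10.9, and its P6.5 quartiles of 0 and 37.4 spanned the P2.5 quartiles of 1.70 and 11.9. Gtf2a1l had 0, 3.08 and 191.75.

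**Figure D4:**
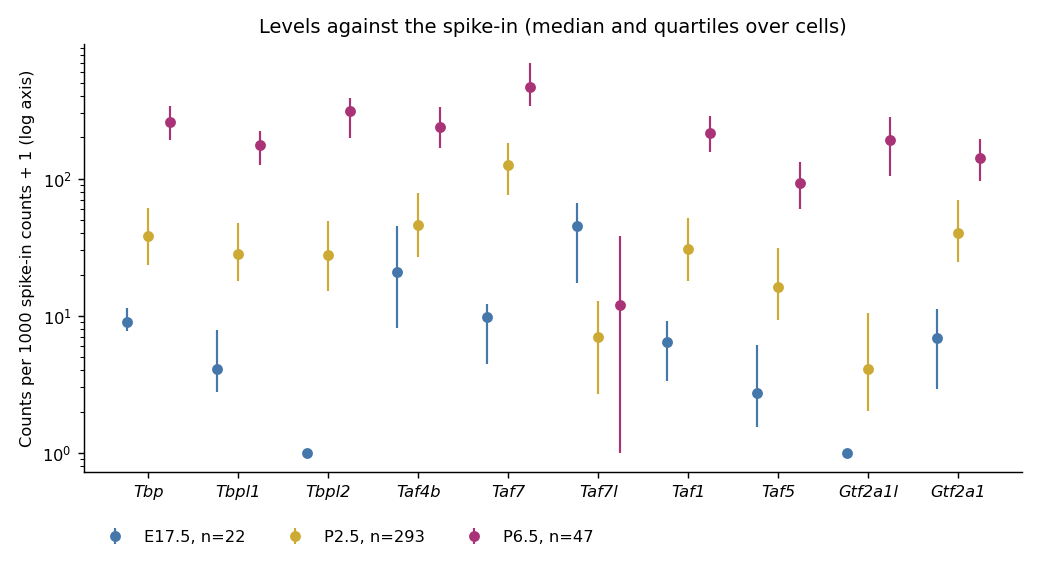
Counts per 1000 spike-in counts, plus 1, on a log axis for the 8 genes and both forms of the large TFIIA subunit, with the median over cells as a point and the quartiles as a bar, by stage. All genes shown except Taf7l have a higher median at each later stage, Tbp for example with 7.94, 37.3 and 258.2.

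Within a stage, cells differed in how much of each member they held. The Spearman correlations that follow are descriptions over cells of 1 stage, which share library preparation and the scaling to CPM, and no test was made of them. Across the P2.5 cells (all of the 362 except 22 of E17.5 and 47 of P6.5) Tbpl2 followed the sum of the 7 oocyte growth genes (rho 0.478). Across the 47 P6.5 cells it did not (rho -0.042), where that sum ran from 5789 to 34295 CPM. Tbp and Taf7 were lower in P2.5 cells with more growth transcripts (rho -0.330 and -0.409), but at P6.5 the values were 0.202 and -0.080. Their correlations with total counts at P2.5 were -0.243 and -0.193, and the part of depth was not tested. Tbpl2 and Tbp hardly varied together at P2.5 (rho -0.070), nor did Taf7l and Taf7 (0.147).

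The 5 genes whose CPM varied most like that of Tbpl2 over the P2.5 cells, of 7180 genes compared, were Aven (rho 0.55), Tacc3 (0.51), Astl (0.50), Zp3 (0.49) and Ldhb (0.49). Zp3 encodes an egg coat protein and Astl the protease that hardens the coat after fertilisation. Tbpl2 also varied with Gtf2a1l (0.289) and against Gtf2a1 (-0.314) at P2.5. At P6.5 these values were 0.233 and -0.032.

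Taf4b had weaker company at P2.5, led by Usp19 (rho 0.38), Rhoa (0.37), Rrp12 (0.36), Eif4g2 (0.36) and Arl8b (0.35). Its correlation with total counts in the same cells was 0.263, so depth moved with it, and the part of depth was not tested. At P6.5 Taf4b was lower in cells with more oocyte growth transcripts (rho -0.623) and higher in cells with a higher meiotic prophase sum (0.451). Smc1b, Sycp3 and Sycp1 made up most of that sum. The correlation of Taf4b with total counts at P6.5 was -0.380.

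Taf7l varied most like Sycp1 (rho 0.49), Nxf2 (0.47), Tsc22d3 (0.42), Slc25a31 (0.41) and Ptma (0.41). Sycp1 encodes the transverse filament protein of the synaptonemal complex, which holds paired meiotic chromosomes together. With the sum of 9 meiotic prophase genes, Sycp1 included, rho for Taf7l was 0.357 at P2.5 and 0.428 at P6.5. With the growth sum it was -0.110 at P2.5 and -0.482 at P6.5. The correlation of Taf7l with Tex19.2 at P2.5 was 0.185.

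**Figure D5:**
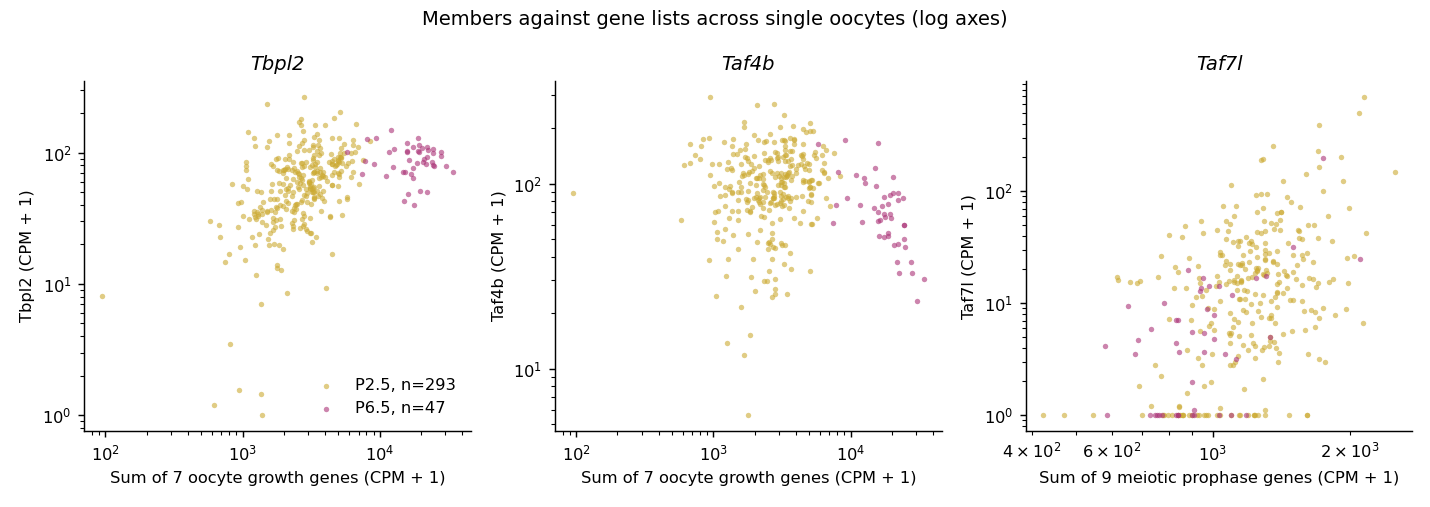
CPM + 1 of Tbpl2, Taf4b and Taf7l against the summed CPM + 1 of oocyte growth or meiotic prophase genes on log axes, with 1 point per cell at P2.5 and P6.5 (47 cells). Tbpl2 rises with the growth sum among P2.5 cells (rho 0.478) but not among P6.5 cells (rho -0.042), Taf4b falls with it among P6.5 cells (rho -0.623), and Taf7l rises with the meiotic sum (rho 0.357 and 0.428).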

How the data were processed

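Smart-seq2 libraries of single female germ cells were made with a KAPA HyperPlus kit and sequenced as 150-base pairs on a NovaSeq instrument, per the labels' protocols. The authors deposited raw counts per gene, with 92 spike-in rows, and FPKM values, which divide by length and library size. The submitters' processing notes list STAR 2.7.10b, HTSeq 0.13.5, RSEM 1.3.3 and mm10. The tool behind each table, the annotation and the strand setting are not given there. The counts of E17.5 libraries 4 and 7 matched the FPKM column of library 2 better than their own (Pearson r of log values 0.866 against 0.860 and 0.861 against 0.830), so counts were the main measure. Columns of no library numbered 0.

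Groups are the stages in the labels. Summed counts of a stage, spike-in rows left out, were scaled to an equal total (CPM). Merging near-identical libraries turned 317 P2.5 libraries into 293 cells. Log2 ratios of named genes have exact conditional Poisson 95% intervals, and shares of cells carry 95% limits by the exact Clopper-Pearson method. With no molecular identifiers, reads are not independent molecules, and the intervals cover counting error only. A gene was called at a 2-fold ratio with 0.5 CPM added, and with no animals named in the labels there was no test. Near-identical P2.5 libraries (median chi-square per gene under 1.5 over genes with at least 20 counts, in pairs that were each other's nearest neighbour) were summed as 1 cell. Doublets were not called, since cells were picked by hand, and marker lists (at least 10 counts after thinning to 100000) were used instead, and the erythroid list, which every E17.5 library held, was not counted in the subset of 34 cells. The members and lists were chosen with earlier results of these data known. The 8 members and the paralogue partners Taf4, Taf9, Taf9b, Gtf2a1 and Gtf2a1l were always named. Other list genes could be named if at least 2-fold apart in neighbouring stages with 5 CPM or more, along with the 5 genes of highest Spearman correlation over P2.5 cells with Tbpl2, Taf4b and Taf7l, among named genes of at least 20 CPM with a count in 50% of cells. Dr1, Gtf2a2 and Taf6, and the further genes of single cells, were named beyond that rule after their values were seen. Gene positions are those of GENCODE M21 (GRCm38, the same assembly as mm10) and promoters those of RefSeq. Alternatives were other scalings, FPKM, other pseudocounts and filters, means of cells and subsets of libraries. The ratio and call steps were checked on simulated counts. Python 3.11.15, scipy 1.17.1, R 4.3.3 and edgeR 4.0.16 (for TMM factors only) were used.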

Additional observations from a re-analysis of the deposited data

How the results depend on the processing

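The named calls of Tbpl2, Taf7, Taf7l and Taf4b between P2.5 and E17.5 held under TMM, median-of-ratios, the other pseudocounts and filters, FPKM, means of cells and every subset of libraries tried, and the spike-in scale reversed Taf4b alone of these 4. Counts of genes at least 2-fold higher between E17.5 and P6.5 were 2 with TMM and with median-of-ratios in place of 1, since Taf7 passed 2-fold. On the spike-in scale 7 genes were higher in each of the 3 comparisons, and 1, 0 and 0 were lower. That scale moved the median gene by 2.45, 2.54 and 4.60 (log2) and reversed Taf4b (1.01 at P2.5 and 3.19 at P6.5 over E17.5), Taf9b (0.80 and 2.74), Taf7l (0.95 at P6.5 over P2.5), Gtf2a1 (1.68 at P6.5 over P2.5) and Taf7l2 (0.80 at P6.5 over E17.5). TMM moved the median gene by 0.41, 0.23 and 0.66. Pairs shifted to the general form between E17.5 and P6.5 were 3 with FPKM in place of 1, and between E17.5 and P2.5 3 in place of 2. These FPKM numbers include the pair Taf9b to Taf9, which could not be measured by counts and is the added pair between E17.5 and P2.5. The set of pairs therefore differs between the FPKM and count numbers. With FPKM, pairs shifted to the germline form were 3 in place of 2 in both comparisons with E17.5, since Tbpl1 to Tbp passed 2-fold. Pairs shifted to the germline form between P2.5 and P6.5 were 2 with means of cells in place of 1. Pairs shifted to the general form between E17.5 and P2.5 were 1 without the 34 cells in place of 2. Leaving out E17.5 library 2 or 20, chosen after seeing the data, gave 1 to 2 such pairs between E17.5 and P2.5 and 1 to 2 between E17.5 and P6.5, the change being Taf4b to Taf4. Per length at E17.5, Tbpl1 to Tbp was 0.98 (log2) with counts per kilobase of exon in place of -1.86. The causes were not tested, except that the exon length of Tbp used there was 13.6 kb. Leaving out E17.5 libraries 4 and 7, an alternative chosen after seeing the data, ended none of the calls of the 8 genes. Depth limits the E17.5 values of Tbpl2, which rest on 1 count, and of Gtf2a1l, at 1.18 CPM. No paired analysis was possible because replicate numbers only name cells and no result comes from a test.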

Other observations

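The subunit genes of RNA polymerase II, which TFIID recruits, did not all move the same way from E17.5 to P2.5. Of its 13 subunit genes 7 passed 2-fold upwards by P2.5 (Polr2c, Polr2d, Polr2e, Polr2i, Polr2j, Polr2k and Polr2l) and 1 passed it downwards, Polr2a, which encodes the catalytic subunit. Over all genes 22.6% were at least 2-fold higher and 32.4% lower. Without the 34 cells that held markers of other cells Polr2c fell short of 2-fold (log2 0.66). Polr2j rose from 39.8 to 208.1 CPM (log2 ratio 2.39) and Polr2l from 50.03 to 149.04 CPM (1.57), while Polr2a fell from 678 to 298.96 CPM (-1.18, turning to 1.33 on the spike-in scale). Polr2b, the second large subunit, was at 362 and 217.7 CPM (-0.73). Between P2.5 and P6.5 none of the 13 was 2-fold apart, and Polr2a was at 171.5 CPM at P6.5. The median log2 ratio of the 13 was 1.02 at the first step and -0.11 at the second, where that of all measured genes was -0.26 and -0.18.

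Complexes that share TBP or TAF-like subunits with TFIID gave 2 of 9 genes at least 2-fold higher at P2.5 than at E17.5 and 0 lower, where 22.6% of all genes were higher and 32.4% lower. The share higher was that of the background. The genes were Taf1a, of the RNA polymerase I factor SL1 (33.9 and 96.6 CPM), and Brf2, of an RNA polymerase III factor (34.8 and 77.7 CPM).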
